A study of Mus musculus with 20 samples.

Results

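Forkhead genes that are known for roles in the connective tissue of the face were described from the H3K27ac peaks around them. The 10 genes were Foxc1, Foxc2, Foxd1, Foxd2, Foxf1, Foxf2, Foxl1, Foxl2, Foxp1 and Foxp2, out of 21938 protein-coding genes in the annotation. They were chosen by name, and a peak was counted for a gene when it overlapped the gene body or when, up to 100 kb away, no protein-coding start site was nearer than the gene's own. In all, 127 of the 144852 peaks kept were counted for these genes, and they fell into 46 of 42346 merged regions. The measurement was ChIP-seq of H3K27ac, an acetyl mark that histones carry where promoters and enhancers are active, in freshly dissected face tissue of mixed cell type from wild-type (WT) mouse embryos. Peak lists of 10 libraries were read, from the mandibular process, maxillary process, medial nasal plate and lateral nasal plate at e11.5, and from the mandibular process, maxillary process and nose at e13.5 and at e15.5. Another 10 input samples were not analysed here. The labels give no strain, sex or number of embryos for a library, the study's methods state that its mice were of both sexes, and no combination of tissue and stage had a replicate.

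Forkhead factors bind DNA through a winged-helix domain and regulate the patterning and differentiation of many tissues. In the face, Foxf1, Foxf2 and Foxl1 are known as genes of mesenchyme that lies close to epithelium producing Hedgehog ligand, Foxd1 and Foxd2 as genes of the cranial neural crest and frontonasal mesenchyme, and Foxc1 and Foxc2 as genes of periocular and skull-forming mesenchyme and of blood vessels. Foxl2 is best known for the eyelid and the ovary, and its human counterpart for an eyelid syndrome, while human FOXP1 and FOXP2 are known for disorders of speech and language.

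The yield of the libraries ran from 10.5 to 49.4 Mb under peaks, the e13.5 nose being the longest list with 25941 peaks, and the number of reads behind the lists is unknown. Signal too weak to be called is possible wherever a gene had no peak. Values per gene are therefore given as acetylated bp per Mb, the length under the gene's peaks divided by the length under all peaks of the library. For the 3 libraries of e15.5 the tissue in the label differed from the tissue in the deposited peak names: the library labelled mandibular process carried peaks named nose, the one labelled maxillary process peaks named for the mandibular process, and the one labelled nose peaks named for the maxillary process. The labels were followed throughout, and these libraries are written as the library labelled so. The 5 mandibular markers did not mark the mandibular libraries as a list: they carried 8 and 6 peaks in the e11.5 and e13.5 mandibular process, 8 in the e13.5 nose and 1 to 4 in the other libraries of these stages. Within the list Hand2 had 5 and 3 peaks in the mandibular process of e11.5 and e13.5 and none in the other 5 libraries, while Hand1 had none in the mandibular process and Dlx6 had most, 4, in the e13.5 nose. At e15.5 the list carried 3, 6 and 1 peaks in the libraries labelled mandibular process, maxillary process and nose, and the 5 nasal markers 13, 3 and 5. The nasal markers carried 19 to 24 peaks in the nasal libraries of the earlier stages and 2 to 4 in the jaw libraries. Among them Pax7 and Six3 had no peak in the 4 jaw libraries of e11.5 and e13.5 and 2 to 6 peaks each in the 3 nasal ones; in the library labelled e15.5 mandibular process they had 2 and 3 peaks, and in the other libraries of e15.5 none. Of 5 markers of facial mesenchyme, 4 had a peak in each of the e11.5 and e13.5 mandibular libraries and all 5 in the other libraries. Markers of other cells were present too, most of all in the libraries with many peaks: the 7 epithelial markers carried 12, 19 and 25 peaks in the medial nasal plate, lateral nasal plate and e13.5 nose against 1 to 4 in each jaw library of e11.5 and e13.5, and the 5 endothelial markers carried 9, 12 and 4 against 2 or 3.

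Foxp1 was the one member marked in nearly every library, while the others were each marked in 1 to 6. Counted by library, 8 of the 10 genes had a peak in the e11.5 medial nasal plate, 8 had one in the e13.5 nose, 5 in the e11.5 mandibular process, 4 each in the lateral nasal plate, the library labelled e15.5 mandibular process and the one labelled e15.5 maxillary process, 2 in the maxillary process of e11.5 and of e13.5, and 1, Foxp1, in the e13.5 mandibular process and the library labelled e15.5 nose. A peak within 1 kb of one of their start sites was found in at least 1 library for 9 members, against 54.9% of all protein-coding genes, and in all 10 libraries for none, against 12.7%. Foxl1 was the member without one, as were 45.1% of genes, and the other 9 had one in 1 to 9 libraries, as had 42.2%. Of the 46 regions, 29 were distal, more than 1 kb from every annotated start site, against 60.8% of the 37135 regions assigned to a protein-coding gene. A single library held 20 of the 46 (43.5%, against 42.2%), and 1 was held by 9 or 10 libraries (2.17%, against 11.4%) and none by all 10 (against 7.53%). By stage, 20 regions were marked in some library of e11.5 and in none of e15.5 (43.5%, against 29.4%), and 7 the reverse (15.2%, against 23.3%). Peaks of the members were often weak within their own list: 58.3% reached a −log10 q of 2 against 68.1% of all peaks, and 39 of the 127 (30.7%) were among the strongest peaks when every list was shortened to the length of the shortest, against 45.4% of all peaks.

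**Figure D1:**
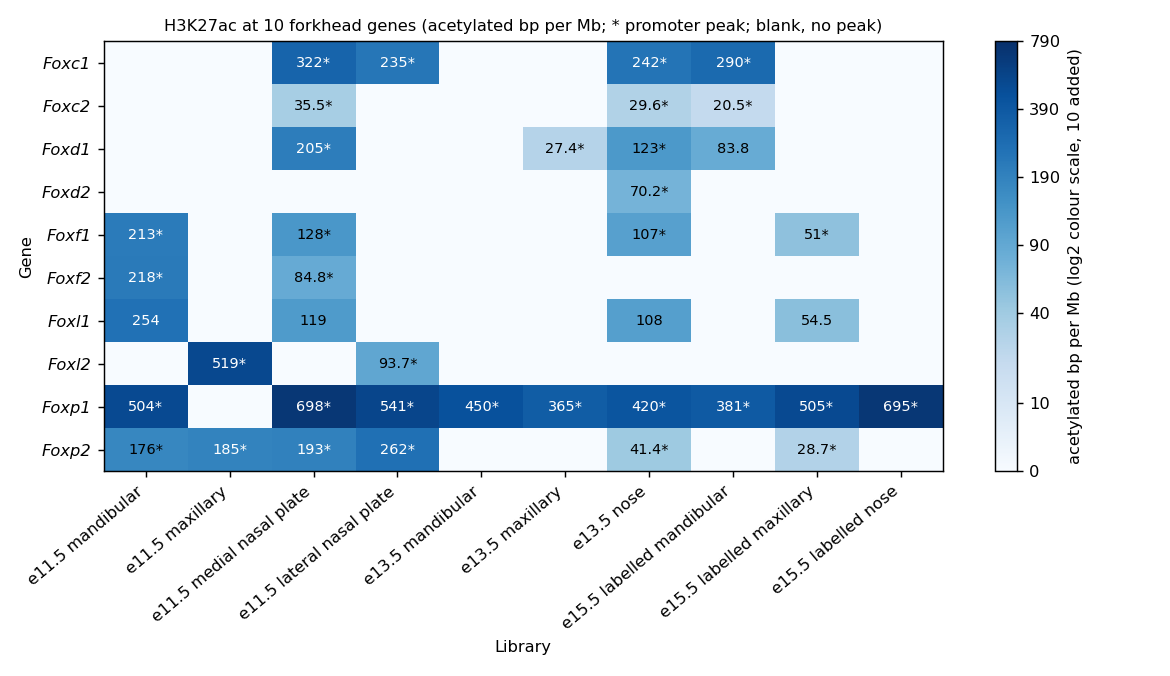
Acetylated bp per Mb at the 10 genes (rows) in the 10 libraries (columns), as colour on a log2 scale and as the printed value; an asterisk marks a peak within 1 kb of a start site of the gene and a blank cell has no peak. Foxp1 is blank only in the e11.5 maxillary process, where Foxl2 and Foxp2 are the genes marked, and Foxf1 and Foxl1 fill the same 4 columns.

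Foxc1, which acts in mesenchyme around the eye, the skull and the vessels, was marked in the nasal libraries and in none of the jaw libraries of e11.5 and e13.5. It measured 322 bp per Mb in the medial and 235 in the lateral nasal plate, 242 in the e13.5 nose and 290 in the library labelled e15.5 mandibular process, with no peak in the other 6. The 3 nasal libraries (266 ± 48.5, SD, n = 3) thus did not overlap the 4 jaw libraries at 0, and 29.8% of genes tested did not overlap in either direction. The gene lies on the plus strand of chromosome 13 (31806633 to 31812476, mm10), and its peaks formed a wide domain over the start and most or all of the gene: the widest reached 9611 bp (medial nasal plate), 5581 bp (lateral nasal plate), 11136 bp (e13.5 nose) and 9048 bp (library labelled e15.5 mandibular process). Among the widest promoter peaks of all genes with one in the same library, these stood at the 99.5th, 98.2nd, 99.6th and 99.2nd percentile. The promoter peaks fell within a merged region of 11884 bp. In the lateral nasal plate and the library labelled e15.5 mandibular process, shorter peaks followed in the 3′ part of that region. A further 3 regions lay in introns of Gmds, a neighbouring gene of nucleotide sugar metabolism: 1 at 14.6 kb from the Foxc1 start in the medial nasal plate and the library labelled e15.5 mandibular process, 1 at 16.0 kb in the lateral nasal plate, and 1 at 70.5 kb in the e13.5 nose and the library labelled e15.5 mandibular process. These 3 were not shared by all libraries with the domain. The bases just before the Foxc1 start show the GC-rich promoter, which in the medial nasal plate lay between peaks except for its last bases, and the region at 70.5 kb is shown because it was marked at e13.5 and e15.5 and in no library of e11.5. Capitals mark matches to the letters searched (forkhead TGTTTAC and TGTTTGC, E-box CATCTG and CACCTG, homeodomain TAATTA and GLI ACCACCC, on both strands). The first is from chr13:31806396-31806632 (plus strand, RefSeq promoter table, GRCm38.p6), which overlaps no annotated exon and has a GC content of 72.6%, and the second is the centre of the stretch shared by both libraries, chr13:31877073-31877372, with a GC content of 51.3%.
Foxc1 promoter: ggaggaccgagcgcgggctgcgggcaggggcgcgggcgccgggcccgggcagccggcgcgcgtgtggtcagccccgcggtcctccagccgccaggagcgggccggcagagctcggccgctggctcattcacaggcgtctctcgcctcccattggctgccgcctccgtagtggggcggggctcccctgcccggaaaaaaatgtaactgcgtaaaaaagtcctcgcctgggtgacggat
Foxc1 region at 70.5 kb: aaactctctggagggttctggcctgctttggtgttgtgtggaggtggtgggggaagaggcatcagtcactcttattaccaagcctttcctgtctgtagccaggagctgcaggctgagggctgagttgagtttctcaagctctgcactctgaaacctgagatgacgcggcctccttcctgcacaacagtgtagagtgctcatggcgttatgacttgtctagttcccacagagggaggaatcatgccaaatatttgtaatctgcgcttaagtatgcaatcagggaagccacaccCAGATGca
The promoter stretch held none of the letters, and the distal stretch held 1 E-box.

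Foxc2, the paralogue of Foxc1 on chromosome 8 and known for lymphatic vessels and palate, was marked in 3 of the 4 libraries in which Foxc1 was. It measured 35.5 bp per Mb in the medial nasal plate, 29.6 in the e13.5 nose and 20.5 in the library labelled e15.5 mandibular process, and had no peak in the other 7. All 3 peaks were at the promoter and narrow, with widths of 1266, 1459 and 840 bp, at the 26.2nd, 30.7th and 7.11th percentile of widest promoter peaks in their libraries. Foxc2 had no distal region. Thus the pair shared 3 libraries and differed in the form of their acetylation, a domain over Foxc1 and a single short peak at Foxc2.

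**Figure D2:**
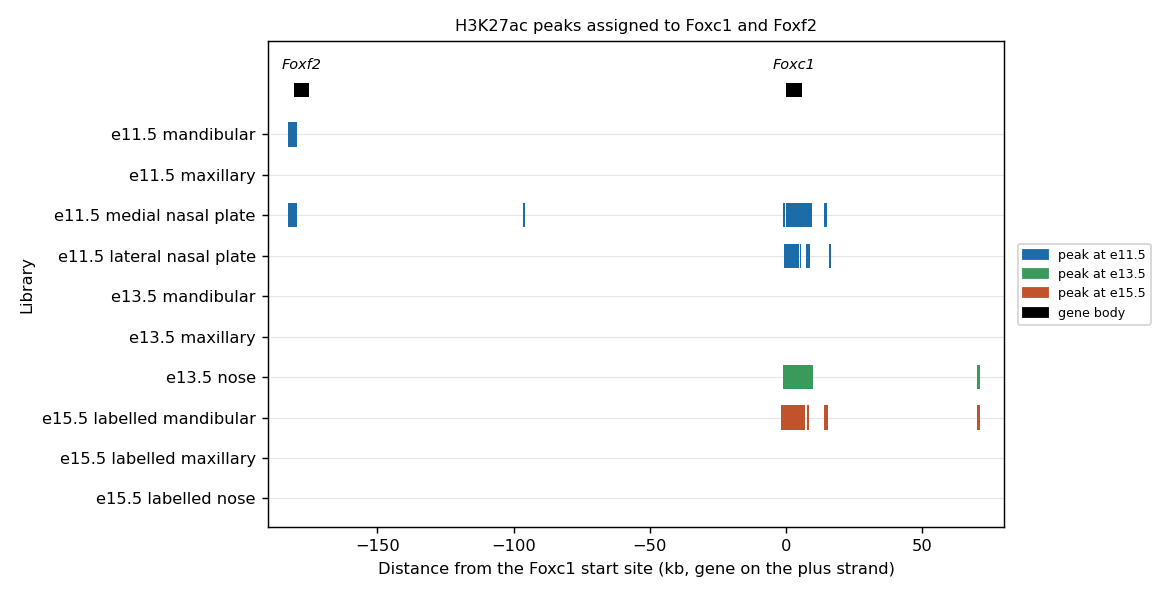
Peaks assigned to Foxf2 and Foxc1 (bars, coloured by stage; narrow bars are drawn at a minimum width) by distance from the Foxc1 start site in kb (x axis) in each library (y axis), with gene bodies in black. The wide Foxc1 domain is present in 4 libraries and Foxf2 in 2, and only the e11.5 medial nasal plate has both.

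Foxf2, a gene of palate and tongue mesenchyme, is a neighbour of Foxc1, 181 kb before it on the same strand, and shared 1 library with it. It measured 218 bp per Mb in the e11.5 mandibular process and 84.8 in the medial nasal plate and had no peak at e13.5 or e15.5. In the mandibular process a single peak of 3387 bp lay across the start site (chromosome 13, 31625816), and in the medial nasal plate 2 peaks of 1585 and 1209 bp covered the same stretch and another of 234 bp lay 84.4 kb away. The e11.5 mandibular process had 8402 peaks against 21689 and 25941 in the lateral nasal plate and the e13.5 nose, where Foxf2 had none. The mandibular peak was weak, with a −log10 q of 1.53, and no Foxf2 peak was left in any library when the lists were shortened to equal length.

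Foxf1, the paralogue of Foxf2 and a target of Hedgehog signalling in mesenchyme, was marked in the same pair of e11.5 libraries and in 2 later ones. Its values were 213 bp per Mb in the e11.5 mandibular process, 128 in the medial nasal plate, 107 in the e13.5 nose and 51.0 in the library labelled e15.5 maxillary process, with no peak in the other 6. In the same order the strongest Foxf1 peak had a −log10 q of 1.61, 9.31, 4.35 and 1.60, so the highest value came from a weak peak. All 4 libraries had a peak on the upstream side of the gene, over exons of Fendrr, a long non-coding RNA gene transcribed away from Foxf1. This peak ended 226 bp before the Foxf1 start (chromosome 8, 121084386) in the e11.5 mandibular process, 271 bp before it in the medial nasal plate and 361 bp before it in the library labelled e15.5 maxillary process. A peak over the start itself, of 806 bp, was called in the e13.5 nose only. A region of 2034 bp in an intron of Fendrr, 20.7 kb upstream, was marked in the medial nasal plate and the e13.5 nose.

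Foxl1, a mesenchymal regulator best known from the gut, lies 43.6 kb beyond Foxf1, with Foxc2 between them. It was marked in exactly the 4 libraries of Foxf1, and no library had a peak within 1 kb of its start. The values were 254 bp per Mb in the e11.5 mandibular process, 119 in the medial nasal plate, 108 in the e13.5 nose and 54.5 in the library labelled e15.5 maxillary process. In the same order the strongest Foxl1 peak had a −log10 q of 1.77, 3.54, 3.19 and 1.64. With a minimum of 2, Foxf1 and Foxl1 both keep peaks in the medial nasal plate and the e13.5 nose only. The peak nearest to Foxl1 began 42487, 52334, 52572 and 6629 bp from the start in the order of the values. All 6 regions were thus assigned by distance, and 5 of them lay in introns of the annotated gene Gm20388. The farthest region, at 92.4 kb, was shared by the e11.5 mandibular process, the medial nasal plate and the e13.5 nose over a core of 1523 bp (chromosome 8, 121219380 to 121220902). Another, at 53.3 kb, was shared by the medial nasal plate and the e13.5 nose, while the regions at 43.2 kb and at 7.58 kb were each found in 1 library, the e11.5 mandibular process and the library labelled e15.5 maxillary process. A region at 75.2 kb, in the e13.5 nose only, covered a start site of the non-coding gene 5033426O07Rik. Within this cluster of 3 genes, Foxc2 shared 2 of its 3 libraries with Foxf1 and Foxl1, and in the one not shared, the library labelled e15.5 mandibular process, neither had a peak.

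**Figure D3:**
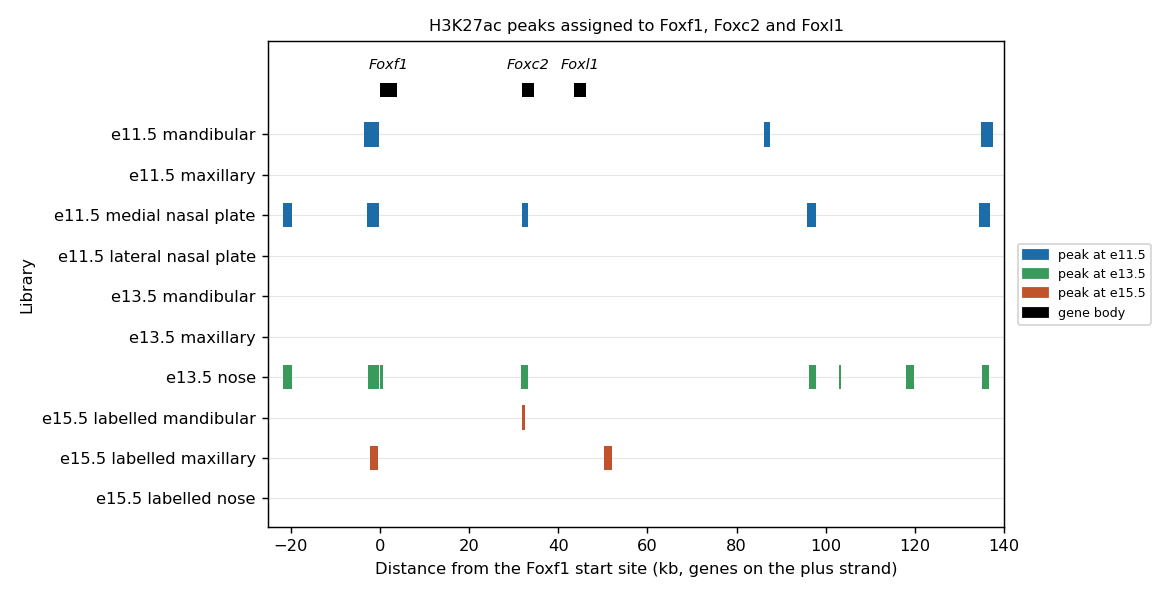
Peaks assigned to Foxf1, Foxc2 and Foxl1 (bars, coloured by stage; narrow bars are drawn at a minimum width) by distance from the Foxf1 start site in kb (x axis) in each library (y axis), with gene bodies in black. The upstream peak of Foxf1 ends just before the gene in each of the 4 marked libraries, the e13.5 nose alone has a peak over the Foxf1 start, no peak lies at the Foxl1 body, and the 2 e15.5 libraries with peaks share none.

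Foxd1, a gene of neural crest and kidney stroma, had its highest value in the medial nasal plate. It measured 205 bp per Mb there, 123 in the e13.5 nose, 83.8 in the library labelled e15.5 mandibular process and 27.4 in the e13.5 maxillary process, with no peak in the other 6, the lateral nasal plate among them. The promoter peak was 1141 bp wide in the medial nasal plate, 2261 bp in the e13.5 nose and 583 bp in the e13.5 maxillary process, where it was the only one. In the library labelled e15.5 mandibular process the promoter had no peak, and the value came from an intergenic region 37.6 kb downstream. That region was present in 3 libraries with widths of 2591 bp (medial nasal plate), 1896 bp (e13.5 nose) and 3438 bp (library labelled e15.5 mandibular process). A further region of 1893 bp at 12.5 kb was marked in the e13.5 nose only. Foxd2, its paralogue on chromosome 4, had a single peak in the whole series, 3468 bp over the promoter in the e13.5 nose (70.2 bp per Mb), which also covers Foxd2os, an overlapping non-coding gene. The promoter of Foxd1 (chr13:98353995-98354241, plus strand, RefSeq promoter table, GRCm38.p6, 57.1% GC) and the centre of the shared core of the distal region (chr13:98391140-98391439, 72.0% GC) are shown because the distal stretch, and not the promoter, was the element marked at all 3 stages. The promoter peaks began at position 98354194 or later, so only the last bases of the promoter stretch lay under a peak.
Foxd1 promoter: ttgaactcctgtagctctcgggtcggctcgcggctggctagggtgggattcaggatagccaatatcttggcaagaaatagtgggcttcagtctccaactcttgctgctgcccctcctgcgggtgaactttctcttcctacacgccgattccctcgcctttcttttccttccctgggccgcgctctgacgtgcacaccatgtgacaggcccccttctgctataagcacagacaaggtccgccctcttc
Foxd1 region at 37.6 kb: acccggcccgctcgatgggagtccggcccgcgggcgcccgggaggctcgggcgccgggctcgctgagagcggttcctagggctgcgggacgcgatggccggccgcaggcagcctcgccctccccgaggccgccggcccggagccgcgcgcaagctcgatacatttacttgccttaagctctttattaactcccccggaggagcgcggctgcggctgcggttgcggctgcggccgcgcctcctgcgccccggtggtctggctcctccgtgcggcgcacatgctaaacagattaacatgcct
Neither held any of the letters searched, and the distal stretch was the richer in G and C.

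Foxl2, a regulator of eyelid and ovary, was marked at e11.5 only, in the maxillary process and the lateral nasal plate. It measured 519 bp per Mb in the former and 93.7 in the latter, with no peak in the medial nasal plate, the mandibular process or any later library. In the maxillary process peaks of 3048 and 2402 bp covered the promoter and the gene (chromosome 9, 98955288 to 98958543), and in the lateral nasal plate the corresponding peaks were 2318 and 831 bp. The maxillary library had the fewest peaks of all, 6571, so the higher Foxl2 value came from the shortest list. The promoter peak also covers Foxl2os, an overlapping non-coding gene, and peaks carry no strand.

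Foxp1 is a long gene on the minus strand of chromosome 6 (98925338 to 99522721, 597384 bp) with several promoters, and peak counts of genes of different length are not compared here. It had 5, 0, 11 and 10 peaks in the mandibular process, maxillary process, medial nasal plate and lateral nasal plate of e11.5. At e13.5 it had 2, 3 and 12 in the mandibular process, maxillary process and nose, and at e15.5 7, 9 and 6 in the libraries labelled so. In bp per Mb the values were 504, 0, 698 and 541 at e11.5, 450, 365 and 420 at e13.5, and 381, 505 and 695 at e15.5, in the same order. The e11.5 maxillary process thus stood apart at 0, and the other 9 libraries lay between 365 and 698. That library had the shortest list, with 6571 peaks, and signal too weak to be called is possible there. Of the 21 regions of Foxp1, 15 were distal, 11 were found in a single library and 1 was found in 9. That one lay 573 kb downstream of the start, over an exon and more than 11 kb from any start site, with a core of 1647 bp (chromosome 6, 98948852 to 98950498) common to all 9 libraries. The promoter at the 5′ end was marked in 8 libraries, and an internal promoter 495 kb downstream in 8. They were not the same 8: the e11.5 mandibular process had the internal promoter and no peak at the 5′ end, and the e13.5 mandibular process the reverse. Another internal promoter, 256 kb downstream, was marked in the medial nasal plate, the e13.5 nose and the libraries labelled e15.5 mandibular and maxillary process.

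Other regions of Foxp1 were marked in fewer libraries. A region in an intron, 317 kb downstream (chromosome 6, 99204007 to 99206984), was marked in 3 libraries of e11.5, those of the mandibular process and of both nasal plates, and in no later library. Another intronic one at 363 kb was marked in the same 3 and in the e13.5 nose, and in no library of e15.5. The intronic regions at 551 kb and 83.1 kb and a region at 37.8 kb were marked in all 3 nasal libraries and in no jaw library of e11.5 and e13.5. That at 83.1 kb was also marked in the libraries labelled e15.5 mandibular and maxillary process. The one at 37.8 kb was also marked in the 3 libraries of e15.5 and covers a start site of the small RNA gene Gm22328. Of all 46 regions of the 10 genes, 4 were marked in all 3 nasal and no jaw library of e11.5 and e13.5 (8.70%), against 5.98% of all assigned regions. Among those 7 libraries, 26 regions (56.5%) were found in nasal ones alone, against 48.7%. The shares lie near the background, and the nasal libraries had 20492 to 25941 peaks against 6571 to 10753 in the jaw libraries. The part of this yield in the regional pattern was not tested over single regions. The internal promoters at 495 kb (chr6:99028314-99028548, minus strand, RefSeq promoter table, GRCm38.p6, 72.8% GC) and 256 kb (chr6:99266533-99266765, minus strand, 45.1% GC) are shown. They were marked in 8 and 4 libraries. The centre of the shared core of the region at 363 kb (chr6:99159961-99160260, 41.7% GC), marked in 4, is shown too. GC content did not follow the number of libraries throughout: the region at 573 kb, marked in 9, had 38.7% in its central bases.
Foxp1 promoter at 495 kb: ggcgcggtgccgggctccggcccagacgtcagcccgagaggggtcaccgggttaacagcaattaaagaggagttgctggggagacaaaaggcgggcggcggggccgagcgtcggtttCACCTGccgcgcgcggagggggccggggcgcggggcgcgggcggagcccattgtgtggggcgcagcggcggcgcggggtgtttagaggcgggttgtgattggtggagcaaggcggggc
Foxp1 promoter at 256 kb: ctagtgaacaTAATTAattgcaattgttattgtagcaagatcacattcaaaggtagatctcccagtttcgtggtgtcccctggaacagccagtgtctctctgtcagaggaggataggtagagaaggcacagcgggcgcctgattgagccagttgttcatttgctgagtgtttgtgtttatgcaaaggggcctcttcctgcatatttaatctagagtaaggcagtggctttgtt
Foxp1 region at 363 kb: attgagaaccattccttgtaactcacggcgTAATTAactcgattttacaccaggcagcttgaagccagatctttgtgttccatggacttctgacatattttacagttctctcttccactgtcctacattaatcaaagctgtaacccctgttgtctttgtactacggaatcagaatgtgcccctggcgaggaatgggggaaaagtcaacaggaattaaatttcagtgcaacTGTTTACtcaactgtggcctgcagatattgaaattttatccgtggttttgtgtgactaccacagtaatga
The promoter at 495 kb held 1 E-box, that at 256 kb 1 homeodomain match, and the intronic stretch 1 homeodomain and 1 forkhead match.

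**Figure D4:**
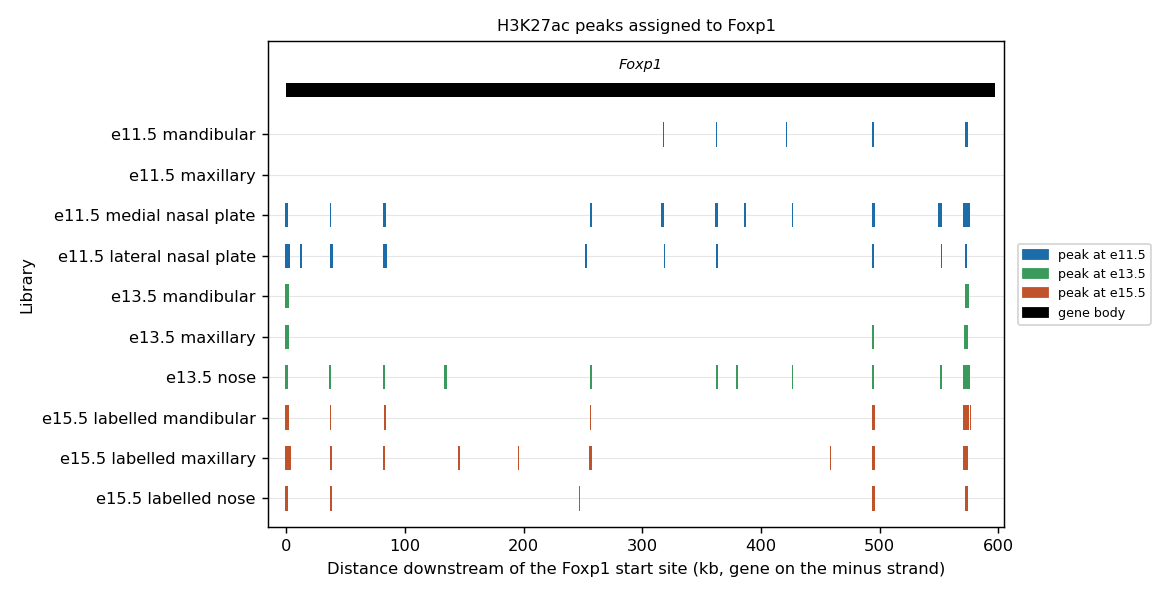
Peaks assigned to Foxp1 (bars, coloured by stage; narrow bars are drawn at a minimum width) by distance downstream of its start site in kb (x axis) in each library (y axis), with the gene body in black. Peaks at 573 kb appear in 9 libraries, those at 317 kb in 3 libraries of e11.5 and in no later one.

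Foxp2 was marked in all 4 libraries of e11.5 and in few later ones. It measured 176, 185, 193 and 262 bp per Mb in the mandibular process, maxillary process, medial nasal plate and lateral nasal plate of e11.5, 41.4 in the e13.5 nose and 28.7 in the library labelled e15.5 maxillary process, with no peak in the other 4. In bp per Mb every library of e11.5 lay above every later one. In length under peaks they overlapped, with 2045 bp in the e13.5 nose against 1942 bp in the e11.5 maxillary process. The first promoter (chromosome 6, start at 14901349) carried the peaks of the 4 libraries of e11.5 and of the e13.5 nose, and no peak at e15.5. This was the only region of the 46 (2.17%) present in all e11.5 libraries and in none of e15.5, against 0.415% of all assigned regions. An internal promoter 284 kb downstream was marked in the medial and lateral nasal plates and, with a peak of 1000 bp at a −log10 q of 1.36, in the library labelled e15.5 maxillary process. A distal region at 420 kb was marked in both nasal plates.

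Across stages, the question was whether acetylation at these genes changed between e11.5 and e15.5. No member passed the threshold, and Foxp2 came nearest. In a limma fit over 12417 genes with a peak in at least 3 libraries, on log2(bp per Mb + 10), 40 genes (0.322%) had a Benjamini-Hochberg adjusted p under 0.05 between e15.5 and e11.5, and 0 of 7 members. Without adjustment 1 member, Foxp2, and 10.3% of genes had a limma p under 0.05, and the exact permutation test, which called no gene after adjustment, gave 5.38% of genes and Foxp2. Foxd2, Foxf2 and Foxl2 had too few libraries with a peak to be tested. Foxp2 was lower at e15.5 by a log2 difference of -3.75 ± 1.02 (SE), from 204 ± 39.4 bp per Mb (SD, n = 4) to 9.57 ± 16.6 (n = 3), with a limma adjusted p = 0.102, and 0.0128 to 0.531 over the alternatives. The size of this difference depends on the constant added, and it was -2.12 with 50 added and -6.03 with 1. The Foxp2 groups did not overlap, which was so, with e15.5 lower, for 3.97% of genes. The exact two-sided permutation p was 0.0286, the smallest that 35 arrangements allow, and 0.531 after adjustment over all genes. Between e13.5 and e11.5 the Foxp2 difference was -3.62 ± 1.02 (SE, limma adjusted p = 0.459). These groups again did not overlap in bp per Mb, as for 1.47% of genes, though they did in length under peaks. No member and 2 genes (0.0161%) were called there, and without adjustment Foxp2 and 5.03% of genes by limma and 1.90% of genes by the exact permutation test. These comparisons share the e11.5 libraries. Within tissues, from e11.5 to e13.5, the Foxp2 values differed by -176 bp per Mb in the mandibular process, by -185 in the maxillary process, and by -152 and -221 in the nose against the medial and the lateral nasal plate. With tissue as a block, by the labels and added after the data were seen, the Foxp2 difference was -3.67 ± 1.08 (SE, limma adjusted p = 0.110) at e15.5 and -3.53 ± 1.08 (SE, limma adjusted p = 0.519) at e13.5, 0 members were called, and 86 genes in place of 40 were called between e15.5 and e11.5. The e15.5 blocks depend on labels that differ from the peak names. Of the other 6 members, 5 had log2 differences between e15.5 and e11.5 of -1.21 for Foxl1 to -0.01 for Foxc2, and Foxp1 measured 527 ± 158 bp per Mb (SD, n = 3) at e15.5 and 436 ± 302 (n = 4) at e11.5. Their limma adjusted p-values were 0.624 to 0.998. The median over the 7 members was -0.78, against 0.08 over all genes. Foxc1, Foxc2 and Foxd1 changed sign when the e11.5 medial nasal plate or the library labelled e15.5 maxillary process or nose was left out, and the Foxp1 difference was -0.17 without the e11.5 maxillary process.

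Between tissues, the nasal libraries of e11.5 and e13.5 (3) were compared with the jaw libraries (4), with stage in the model and e15.5 left out. Foxc1 was the one member called: its difference was 4.76 ± 0.50 (SE) with a limma adjusted p = 0.0201, and 0.00475 to 0.534 over the alternatives. Since all 4 jaw libraries were at 0, this value depends on the constant added, and it was 2.64 with 50 added and 8.03 with 1. In all, 2182 genes (17.6%) were called, 1050 of them (8.46%) higher in the nasal libraries, so that 1 call among 7 members lay near the background. At equal yield 2 genes in all were called, and Foxc1, with peaks left in 2 libraries, could not be tested. The nasal lists held 20492 to 25941 peaks against 6571 to 10753 in the jaw lists, and the part of yield in the Foxc1 call was not tested. The groups did not overlap for 29.8% of genes in either direction, and among the members for Foxc1 alone. The exact permutation p for Foxc1 was 0.0556, the smallest that 18 arrangements within stages allow, and could not reach 0.05. Leaving out the e11.5 mandibular or maxillary process ended the call (limma adjusted p = 0.0598 and limma adjusted p = 0.0749) and left no gene called, while the difference itself was 4.74 in each case. Without the lateral nasal plate Foxc2 was called too (limma adjusted p = 0.0154). With the e15.5 libraries added as labelled the difference was 2.70 (limma adjusted p = 0.534). The other tested members had positive differences, from 1.11 for Foxl1 and 1.13 for Foxp2 to 1.45 for Foxc2, 1.89 for Foxp1 and 2.44 for Foxd1, with limma adjusted p-values of 0.118 to 0.638. Epithelial and endothelial markers also had more peaks in these nasal libraries, as given above. So had markers of facial mesenchyme, with 19 to 21 peaks against 6 to 9 in the jaw libraries, and those of chondrocytes and osteoblasts. The part of cell types and of yield in these values was not tested. Foxf1, at 1.21, and Foxl1 turned negative without the e13.5 nose. The median over the 7 members was 1.45, against 0.68 over all genes, and that shift applies to each value.

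**Figure D5:**
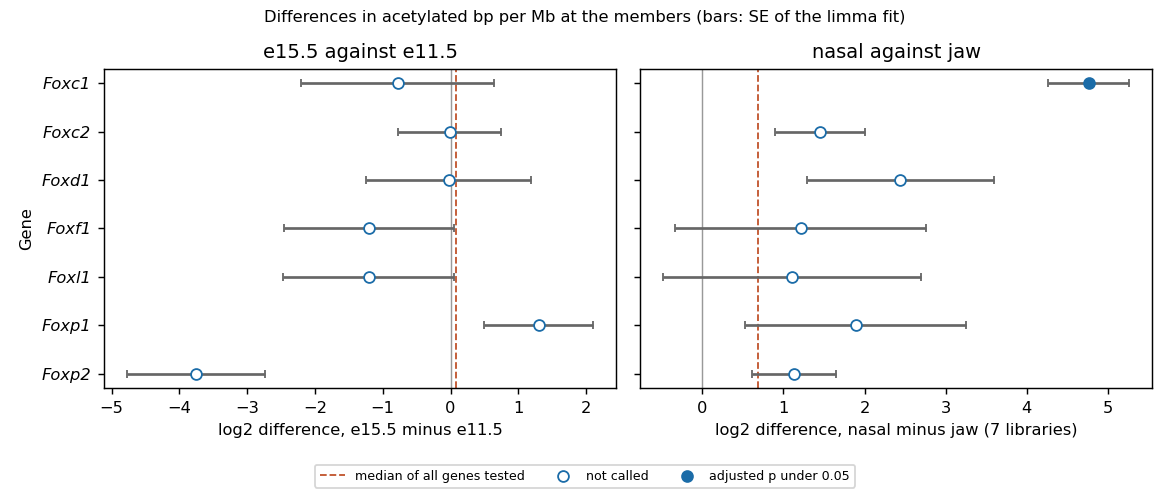
Log2 differences of acetylated bp per Mb (10 added) for the 7 members tested (y axis), e15.5 minus e11.5 (left) and nasal minus jaw at e11.5 and e13.5 (right), with the SE of the limma fit as bars and the median of all genes as a dashed line. Foxc1 in the right panel is the one filled point, called at an adjusted p of 0.0201, and Foxp2 in the left panel lies farthest from 0, at -3.75.

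The other forkhead genes of the mouse gave a wider range of patterns. Of 34, 15 had a promoter peak in at least 1 library. Those with one in all 10 were Foxj3, Foxm1, a regulator of the cell cycle, and Foxn3. No promoter peak was found for 19, among them Foxa2, Foxd3, Foxe1, Foxi3, Foxn1 and Foxq1. Foxq1, which lies before Foxf2 on the same strand, had no peak assigned in any library. In the fits, none of the 18 tested was called between stages (limma, adjusted p of 0.122 for the nearest, Foxp4, at -2.38 between e15.5 and e11.5). Between nasal and jaw libraries Foxb1, Foxi1, Foxj1 and Foxs1 were higher in bp per Mb in the nasal ones and Foxj2 lower, 5 of 18 beside 17.6% of all genes. Foxj1, a regulator of motile cilia, was marked in the same 4 libraries as Foxc1.

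The Hedgehog pathway is known to act upstream of Foxf1, Foxf2 and Foxl1. A promoter peak was present in all 10 libraries for 8 of its 13 genes (Ptch1, Smo, Gli1, Gli2, Gli3, Sufu, Gas1 and Boc), beside 12.7% of all genes, and in none for Shh, the ligand, and Hhip, an inhibitor. None of the 11 tested was called between stages. Between tissues 2 of the 11 were called, near the 17.6% of all genes. In bp per Mb Ptch1, the receptor, was lower in the nasal libraries by a log2 difference of -0.86 ± 0.18 (SE, limma adjusted p = 0.0274) and Gli1, a target and effector, by -1.26 ± 0.25 (limma adjusted p = 0.0219). These are shares of the length under all peaks, which was 33.6 to 49.4 Mb in the nasal and 10.5 to 21.3 Mb in the jaw libraries. At equal yield 2 genes in all were called between these tissues, and the part of yield in the differences was not tested.

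Only Foxp1 and Foxp2 had peaks in enough libraries for a search for genes of like pattern. Over the 10 libraries, which share differences in yield, the genes on other chromosomes most like Foxp1 were Prpf40b and Fmnl3 on chromosome 15 (Pearson r = 0.99 for each, of 11812 genes compared), and those most like Foxp2 were Opn5 on chromosome 17 (0.96) and Ccdc33 on chromosome 9 (0.95). Foxp1, Prpf40b and Fmnl3 each had a peak in 9 libraries. For Foxp1 the e11.5 maxillary process, at 0, lay far from all others, so this 1 library weighs most in its r. In the central 300 bases of the 29 distal regions, the forkhead letters TGTTTAC occurred in 2 (6.90%, against 4.97% of 27437 distal regions) and TGTTTGC in 2 (6.90% against 7.17%). The E-box letters CATCTG occurred in 5 (17.2% against 25.6%) and CACCTG in 3 (10.3% against 15.3%), the homeodomain letters TAATTA in 4 (13.8% against 7.37%) and the GLI letters ACCACCC in 1 (3.45% against 3.83%). The RefSeq table held 8 promoter windows of 300 bases for 6 members. Of these, 1 held the forkhead letters TGTTTGC (against 5.07% of 32851 promoters). The E-box letters CACCTG were in 1 (against 20.2%), and the homeodomain letters TAATTA in 1 (against 5.29%). The remaining letters were in none of the 8, against 3.65% for TGTTTAC. For CATCTG the share of all promoters was 17.2%, and for ACCACCC it was 4.61%. The median GC content of the distal windows was 45.7%, against 47.3% for all distal regions.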

How the data were processed

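H3K27ac ChIP-seq peak lists of 10 libraries of mouse facial tissue were read. The authors aligned reads with BWA 0.7.7 to mm10 and called broad peaks per library with MACS2 2.2.4 (SAMtools 0.1.19 is also named), per the submitters' processing notes. The deposited lists give each peak's position, a score, a fold enrichment (a ratio) and the −log10 of its p-value and q-value, which the authors' caller computed within each list, and depth is unknown. Of 144896 peaks, the 144852 on the assembled nuclear chromosomes were used, and all 208 library and chromosome pairs lay within the GRCm38 lengths. Start sites came from GENCODE vM21. Regions are unions of overlapping or adjoining peaks over libraries, and the assignment and merging were tested on simulated data.

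Acetylated bp per Mb was tested as log2(value + 10) with limma 3.58.1 (R 4.3.3, mean-variance trend, Benjamini-Hochberg over all genes, threshold 0.05) for genes with a peak in at least 3 libraries. Spread came from libraries of different tissues, so p-values measure the spread between tissues. Exact two-sided permutation tests were run over libraries. Consensus letters were searched in the 300 central bases of regions and in RefSeq promoter windows (250 bases before to 50 after a start, 6 of 10 members matched). Named genes were the 10 members, other forkhead genes with a promoter peak in all or no libraries or called, Hedgehog genes called or by count, and the 2 genes most like each member with peaks in at least 5 libraries. Regions named were the widest of each member marked only in nasal libraries or only in 1 stage, in at least 2 libraries. Further regions, Foxp4, the place of Foxq1 and the Hedgehog genes not called were named after their values were seen. Of the forkhead genes with no promoter peak only examples are named, and 1 item is not reported here. The members and lists were chosen with earlier results of these data known. Alternatives were lists shortened to the length of the shortest (equal yield), a −log10 q minimum of 2, the nearest start site only, 20 kb, peaks per 10000, constants of 1 and 50, no filter, distal peaks, peaks of at least 500 bp, exact permutation, leaving out each library, tissue as a block in the stage fit (chosen after seeing the data), and adding e15.5 to the tissue comparison. Python 3.11.15, numpy 2.4.6, pandas 2.3.3 and matplotlib 3.10.9 were used.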

Additional observations from a re-analysis of the deposited data

Results flagged for a closer look

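Among the 4 libraries of e11.5, the medial nasal plate stood apart for Foxc2, at 35.5 bp per Mb, and for Foxd1, at 205 bp per Mb, with no peak in the other 3 libraries for either gene. The 4 libraries are different tissues. Any gene with a peak in only 1 of them stands apart in this way, because the other 3 are tied without a peak. No chance rate can therefore be given for these results.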

How the results depend on the processing

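Between e15.5 and e11.5 the 40 genes called became 127 with a −log10 q of at least 2, 658 at equal yield, 61 with peaks per 10000, 0 with 1 added, 188 with 50 added, 3 with distal peaks only, 86 with tissue as a block and 0 by exact permutation, and 2 to 127 when a library was left out. Members called numbered 0 when any library was left out and 1, Foxp2 (limma adjusted p = 0.0128), with 50 added. Between e13.5 and e11.5 the 2 genes became 4, 220, 10, 0 and 11 under the first 5 of these, 0 by exact permutation, and 0 to 28 without a library. Between nasal and jaw libraries the 2182 genes became 2 at equal yield, 1189 with distal peaks only, 0 by exact permutation, 0 with e15.5 added and 0 to 4112 without a library; members called numbered 0 at equal yield, where Foxc1 had too few libraries to be tested, 0 by exact permutation, 0 with e15.5 added, and 0 to 2 without a library. The 46 regions became 14 and the 29 distal regions 6 at equal yield. Signs changed for Foxc2 with peaks per 10000 (0.05) with 1 added (0.18) and with tissue as a block (0.12), for Foxd1 with 1 added (0.21), distal peaks only (0.16) and the block (0.18), all between e15.5 and e11.5, and for Foxp2 between tissues at equal yield (-1.42). Without a library, Foxc1 ranged from -2.42 to 0.10, Foxc2 from -0.55 to 0.54, Foxd1 from -1.11 to 1.08 and Foxp1 from -0.17 to 1.88 between stages, and Foxf1 from -0.35 to 2.72 and Foxl1 from -0.52 to 2.70 between tissues. The Foxp2 difference between stages lay from -4.40 to -3.43 when a library was left out. It was -6.03 with 1 added, -2.12 with 50 added, -4.68 with a −log10 q of at least 2 and -3.18 at equal yield. Causes were not tested, and 236 of 261 member values kept their direction and side of the threshold. That count is no measure of stability, because some settings could not change a difference. Leaving out an e13.5 library did not alter those between e15.5 and e11.5. Exact permutation and no filter used the same differences, and most members lay far from the threshold. No paired analysis was possible because each tissue and stage had 1 library and the replicate numbers pair none. Tissue as a block, by the labels, was tried after the data were seen and moved no member's call. At e15.5 the labels and the peak names disagree on the tissue, so there the block cannot stand in for pairing. The unknown depth limits every statement that a gene had no peak.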
